A study of Mus musculus with 12 samples.

Results

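Matrix metalloproteinases and their tissue inhibitors were examined in F4/80-positive cells of the mouse endometrium. The genes were 7 metalloproteinases (Mmp2, Mmp8, Mmp9, Mmp12, Mmp13, Mmp14 and Mmp19) and 3 inhibitors (Timp1, Timp2 and Timp3), chosen by symbol. They are 10 of the 22294 genes in the expression table, and all 10 passed the filter on low values. RNA was sequenced from 12 libraries in 4 groups of 3. The Sham group underwent a sham operation and is labelled untreated. In the IUA group intrauterine adhesion (scarring that joins the walls of the uterus) was modelled, and its libraries are named Matrigel. The other 2 groups had the same model and received human umbilical cord mesenchymal stromal cells (MSC), either control MSC or MSC primed with inflammatory cytokines. The labels put the adhesion model in the IUA group and in both MSC groups. Whether the MSC groups or the Sham group also received Matrigel is not given in the sources used here, so in each difference between an MSC group and IUA the effect of MSC and any difference in Matrigel cannot be told apart. All cells were released with trypsin and collagenase and taken by magnetic beads against F4/80, a macrophage surface protein, with no further gate. Strain, age, dose and time after treatment are not given in the sources used here. Nothing in the labels says that the 3 libraries of a group came from separate animals, so p-values measure the spread between these libraries, which may be technical.

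Matrix metalloproteinases are zinc-dependent enzymes that cut collagens, gelatin, elastin and other proteins of the extracellular matrix. Most are secreted as inactive proenzymes and are switched on by removal of a propeptide, while Mmp14 sits in the cell membrane. Tissue inhibitors of metalloproteinases (TIMPs) bind the active site of these enzymes, and Timp2 also takes part with Mmp14 in the activation of the Mmp2 proenzyme. In the uterus these genes are known for the matrix turnover of the cycle and of repair, and macrophages are a known source of Mmp9 and Mmp12. All values here are of mRNA and say nothing of enzyme activity.

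Mmp8, Mmp12 and Mmp13 lie in 1 cluster of 10 Mmp genes on chromosome 9. The 250 bases before the RefSeq start are shown for these 3 genes, whose values follow, and for Mmp14 as a gene outside the cluster. All are on the plus strand of GRCm38.p6, written 5′ to 3′. Mmp13 is at chr9:7272264-7272513, Mmp12 at chr9:7347124-7347373 (before the second of its 2 listed starts, inside an intron of transcripts that begin upstream), Mmp8 at chr9:7558179-7558428 and Mmp14 at chr14:54431348-54431597. Capitals mark TGANTCA, the AP-1 motif, searched on both strands, and TATAAA, the TATA box, searched on the gene's strand.
Mmp13: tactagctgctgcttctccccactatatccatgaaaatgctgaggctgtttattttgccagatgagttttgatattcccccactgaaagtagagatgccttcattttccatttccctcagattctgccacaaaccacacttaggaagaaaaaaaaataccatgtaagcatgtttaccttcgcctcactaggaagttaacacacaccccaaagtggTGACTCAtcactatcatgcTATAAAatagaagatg
Mmp12: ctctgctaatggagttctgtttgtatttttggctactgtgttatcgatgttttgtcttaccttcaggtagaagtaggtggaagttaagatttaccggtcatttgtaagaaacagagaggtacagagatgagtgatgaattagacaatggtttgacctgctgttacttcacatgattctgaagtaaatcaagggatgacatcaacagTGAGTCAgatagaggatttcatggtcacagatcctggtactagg
Mmp8: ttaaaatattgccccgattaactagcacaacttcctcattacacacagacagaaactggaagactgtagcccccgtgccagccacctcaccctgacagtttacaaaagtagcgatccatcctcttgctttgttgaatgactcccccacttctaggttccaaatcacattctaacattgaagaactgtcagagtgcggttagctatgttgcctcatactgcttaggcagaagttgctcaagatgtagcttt
Mmp14: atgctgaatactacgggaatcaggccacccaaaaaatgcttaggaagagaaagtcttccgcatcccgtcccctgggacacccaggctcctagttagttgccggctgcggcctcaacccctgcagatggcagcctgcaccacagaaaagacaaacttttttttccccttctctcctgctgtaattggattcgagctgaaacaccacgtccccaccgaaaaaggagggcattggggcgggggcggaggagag
Mmp13 held TGACTCA 35 to 29 bases before its start and TATAAA 16 to 11 bases before it. Mmp12 held TGAGTCA 44 to 38 bases before the second start and neither motif before the first. Mmp8 and Mmp14 held neither motif in these windows. Of the 10 members 7 had a promoter entry, with none for Mmp2, Mmp9 and Mmp19. TGANTCA was found in 8 of the 10 cluster genes, in all except Mmp8 and Mmp27, and in 0 of the 4 other members with an entry (Mmp14, Timp1, Timp2 and Timp3). A gene counted where any of its windows held a match, while the shares that follow are per window. TGANTCA was present in 6.75% of 32851 promoter windows of the same length, and TATAAA in 7.59%. AGGAAGT, an ETS motif, was also searched on both strands. It was found for Mmp13, Mmp12 (before the first start), Mmp8, Mmp7 and Timp1, and in 7.69% of all windows. An NF-kB motif was found only for Mmp12 (before the first start), and in 7.25% of all windows. A match describes these letters and is not a site of binding.

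Expression is given as FPKM, a fragment number corrected for transcript length and for the mapped total, so levels can be compared between genes. Sums per library ran from 505460 to 563751 FPKM, and the sequencing depth is unknown. Differences are on the log2(FPKM + 1) scale with the standard error (SE) from limma, which understates the change of genes with low values. A gene is said to rise or fall where limma's Benjamini-Hochberg adjusted p over 11604 tested genes was under 0.05. The 12 macrophage markers summed to 12020 to 14653 FPKM in Sham libraries and to 31624 to 37038 in the other 9 libraries. Epithelial markers (15 genes) summed to 8204 to 14312 FPKM in Sham, 1633 to 5465 in IUA, 1586 to 3997 with control MSC and 1598 to 2484 with primed MSC. Markers of 3 other cell types were also highest in Sham without overlap: endothelium (268 to 489 FPKM, and at most 182 in the other libraries), smooth muscle and pericytes (474 to 1576, and at most 434) and mast cells (144 to 205, and at most 101). The Sham libraries thus held more RNA of these marker genes and less of macrophage marker genes. A large part of the mast cell sum was Hdc, with a mean of 88.4 FPKM in Sham. Of the 7 tested mast cell markers 3 fell and 4 did not pass in IUA against Sham, where 45.0% of all tested genes fell. Fewer cells of a type and less RNA per cell cannot be told apart in such bulk libraries, and the part of cell composition in the differences from Sham was not tested.

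In IUA against Sham, 5 members rose and 1 fell, where 11.1% of all tested genes rose and 45.0% fell. Mmp8, Mmp9, Mmp12, Mmp13 and Timp1 were higher and Timp3 was lower. Of these, Mmp8 passed the filter on low values only through the groups with the model. The FPKM ranges of the same 6 genes did not overlap between IUA and Sham, as was so for 11.9% (higher) and 47.7% (lower) of tested genes. The median log2 change was 0.69 over the 10 members and -0.35 over all tested genes. Scaling by the median ratio moved that median over all genes to -0.00. Of the genes called in IUA against Sham, 19.8% rose, against 51.5% with that scaling and 50.9% with a correction for GC content. Both alternatives bring the libraries to a common typical level, so a near-even split is built into them. They are not independent checks, and the part of GC content in the shift cannot be told from them. The 6 members kept their calls under both.

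With control MSC 1 member, Mmp9, rose against IUA and none fell, where 0.724% of tested genes rose and 0.129% fell. With primed MSC Mmp9 and Mmp14 rose and Mmp12 and Timp1 fell against IUA, where 12.2% of genes rose and 6.97% fell. Between primed and control MSC limma called 0 members, where 0.112% of all genes were called. Timp1 alone had an unadjusted p under 0.05 there. Against Sham, 6 members rose and 2 fell with control MSC (background 14.1% and 42.7%), and 5 rose and 2 fell with primed MSC (background 14.5% and 45.0%). Of all genes called against Sham, 24.8% rose with control MSC and 24.4% with primed MSC, against 52.8% and 53.4% with median-ratio scaling. Of all genes called with control MSC against IUA, 84.8% rose, against 72.4% with median-ratio scaling and 67.8% with the GC correction. These comparisons share libraries, so their calls are not independent. In the test over all 4 groups (limma's moderated F), 7 of 10 members were called, against 67.0% of tested genes. Mmp2, Mmp19 and Timp2 were not.

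**Figure D1:**
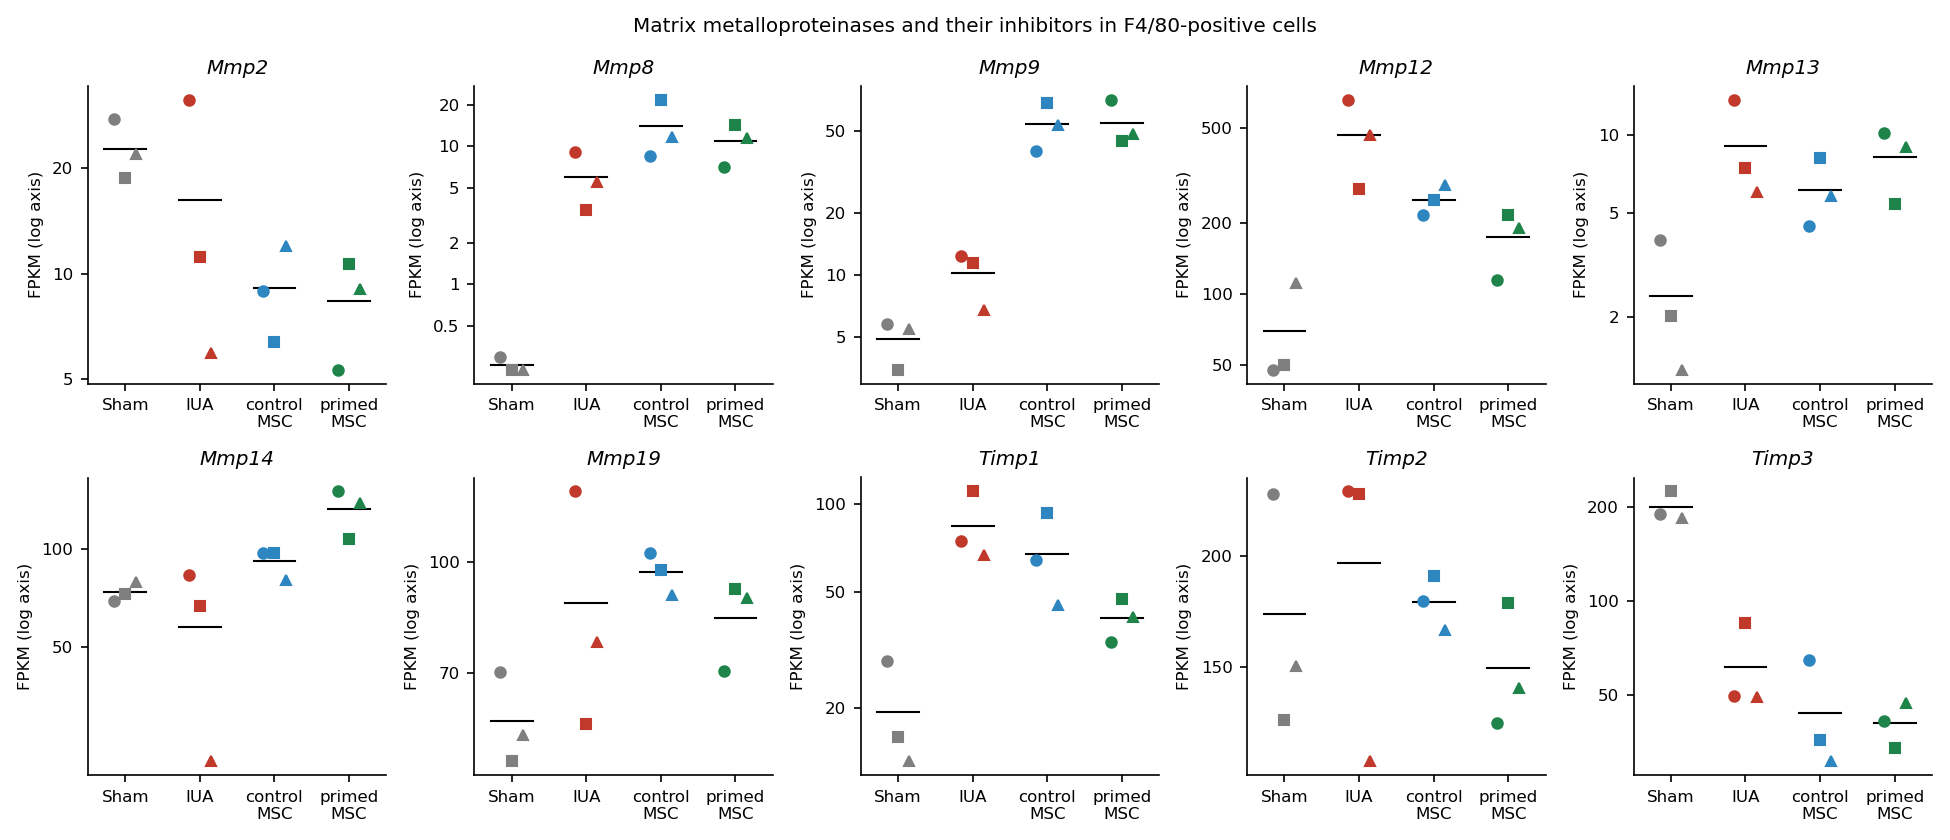
FPKM on a log axis for each of the 10 genes, with 1 point per library (circle, square and triangle for replicates 1, 2 and 3) and a line at the mean of each group of 3. Mmp8 and Mmp12 sit lowest in the Sham libraries, Mmp9 is high in both MSC groups, and Timp3 is highest in Sham.

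**Figure D2:**
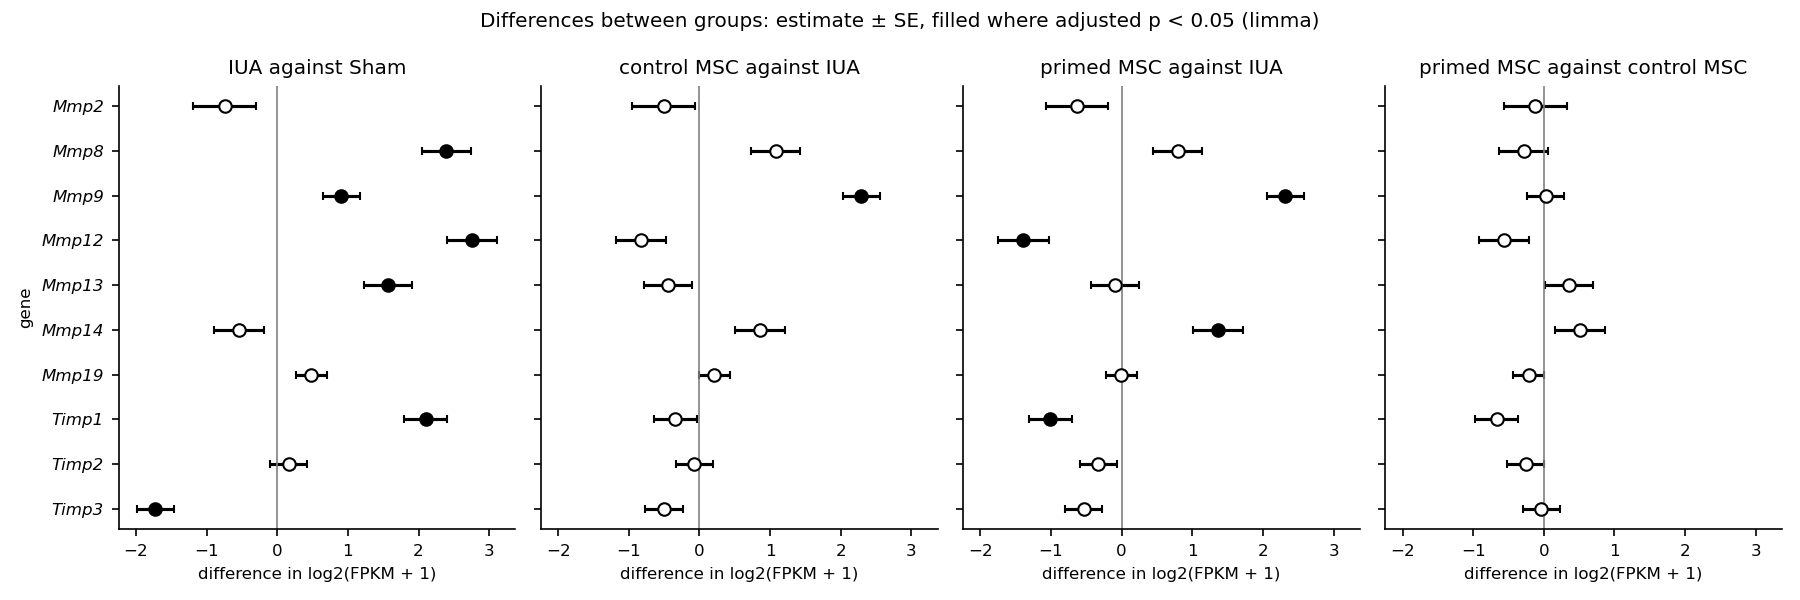
Difference in log2(FPKM + 1) of each of the 10 genes in 4 comparisons (IUA against Sham, each MSC group against IUA, and primed against control MSC), as the estimate ± SE from limma, filled where the adjusted p was under 0.05. Mmp9 is filled and to the right of 0 in the first 3 panels, Mmp12 is filled on the right in IUA against Sham and on the left with primed MSC against IUA, and no gene is filled in the last panel.

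Among the gelatinases, which digest denatured collagen and collagen of basement membranes, Mmp9 (chromosome 2, 164940780 to 164955850, GRCm38) was highest in both MSC groups. It was at 5.80, 3.47 and 5.50 FPKM in the Sham libraries and at 12.35, 11.5 and 6.79 in IUA. With control MSC it was at 39.78, 68.26 and 53.17 FPKM, and with primed MSC at 70.98, 44.58 and 48.22. The 4 groups formed 3 levels without overlap: Sham lowest, IUA next, and both MSC groups together at the top. IUA lay above Sham without overlap for 11.9% of tested genes, and primed MSC and IUA did not overlap, in either direction, for 37.6%. The log2 difference was 0.91 ± 0.26 (SE) in IUA against Sham (adjusted p = 0.0114), 2.29 ± 0.26 with control MSC against IUA (adjusted p = 0.00545) and 2.32 ± 0.26 with primed MSC against IUA (adjusted p = 4.70e-04). Primed and control MSC differed by 0.03 ± 0.26 (adjusted p = 0.979). Mmp9 kept its rise over IUA in both MSC groups under each of 21 alternatives. Its smaller rise in IUA against Sham missed the threshold without Sham replicate 2 (0.72, adjusted p = 0.0544, with a range of 0.00157 to 0.0544 over the alternatives).

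Mmp2 (chromosome 8, 92827291 to 92853420), the other gelatinase, had its highest mean in Sham. It was at 27.57, 18.75 and 21.91 FPKM in Sham and at 31.39, 11.19 and 5.95 in IUA. It was at 8.94, 6.39 and 11.98 FPKM with control MSC and at 5.31, 10.66 and 9.04 with primed MSC. Every library of the MSC groups was below every Sham library, while the IUA libraries spread over the whole range, with IUA replicate 1 the highest of all 12. Lower values than in Sham were common, with 42.7% of all tested genes called lower with control MSC and 45.0% with primed MSC. Mmp2 fell against Sham with control MSC (-1.25 ± 0.44, adjusted p = 0.0294) and with primed MSC (-1.38 ± 0.44, adjusted p = 0.0180), but not in IUA (-0.75 ± 0.44, adjusted p = 0.169). Those calls were lost in 7 and 4 of 21 alternatives, with adjusted p reaching 0.110 and 0.0799, and without IUA replicate 1 Mmp2 was also lower in IUA than in Sham (-1.35, adjusted p = 0.00559). Stromal markers (15 genes) summed to 554 to 1022 FPKM in Sham, 388 to 1068 in IUA, 233 to 362 with control MSC and 169 to 320 with primed MSC, and their part in the values of Mmp2 was not tested.

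The collagenases cut the intact triple helix of fibrillar collagen, and both were higher in all 3 groups with the adhesion model than in Sham. Mmp8 (chromosome 9, 7558456 to 7568485), known as the neutrophil collagenase, was at 0.30, 0.24 and 0.24 FPKM in Sham and at 9.03, 3.44 and 5.53 in IUA. It was at 8.52, 21.81 and 11.63 FPKM with control MSC and at 7.04, 14.20 and 11.41 with primed MSC. No library with the model came near the Sham values, and the 3 groups with the model overlapped. Mmp8 was under 1 FPKM in every Sham library, so it passed the filter on low values only through the groups where it was high. The log2 difference was 2.39 ± 0.34 in IUA against Sham (adjusted p = 2.44e-04), 3.47 ± 0.34 with control MSC against Sham and 3.19 ± 0.34 with primed MSC against Sham. Neither MSC group differed from IUA past the threshold (control 1.08 ± 0.34, adjusted p = 0.135, and primed 0.79 ± 0.34, adjusted p = 0.124), but without IUA replicate 1 the rise with primed MSC passed (1.09, adjusted p = 0.0444, within a range of 0.0444 to 0.336).

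The 12 neutrophil markers summed to 58.7 to 102 FPKM in Sham, 332 to 449 in IUA, 677 to 1105 with control MSC and 346 to 1398 with primed MSC. Ltf, a granule gene that uterine epithelium also expresses, made up most of the sum in every library with the model, and without it the other 11 summed to 25.5 to 44.6 FPKM in Sham, 68.6 to 207 in IUA, 110 to 195 with control MSC and 105 to 231 with primed MSC. Ly6g, the defining surface marker, was listed at 0 in all Sham libraries and at 0.69 FPKM or less in the others. Of the 8 tested markers 5 rose and 0 fell in IUA against Sham, where 11.1% of all tested genes rose and 45.0% fell. With primed MSC against IUA 1 rose, 2 fell and 5 did not pass, with a median log2 difference of 0.07. Of all tested genes 12.2% rose and 6.97% fell there. Csf3r, the receptor of granulocyte colony-stimulating factor, rose (1.17, adjusted p = 0.0108), and Camp and Ngp, granule genes of maturing neutrophils, fell (-1.38, adjusted p = 0.00928, and -1.91, adjusted p = 0.0348), with Camp and Ngp named after their values were seen. The part of neutrophil RNA in the level of Mmp8 was not tested.

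Mmp13 (chromosome 9, 7272514 to 7283331), the main interstitial collagenase of the mouse, stayed at low levels. It was at 3.93, 2.01 and 1.25 FPKM in Sham and at 13.62, 7.44 and 6.02 in IUA. It was at 4.44, 8.14 and 5.83 FPKM with control MSC and at 10.10, 5.43 and 8.98 with primed MSC. All 9 libraries with the model were above the 3 Sham libraries, and their groups overlapped with each other. Mmp13 rose by 1.57 ± 0.34 in IUA against Sham (adjusted p = 0.00224), and the differences from IUA were -0.45 ± 0.34 with control MSC and -0.09 ± 0.34 with primed MSC. Its rise with control MSC against Sham (1.12 ± 0.34) missed the threshold without Sham replicate 3 or without control MSC replicate 2, with adjusted p up to 0.0637.

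Mmp12 (chromosome 9, 7344381 to 7369499) encodes macrophage elastase and was the most abundant metalloproteinase of the set in IUA. It was at 47.84, 50.26 and 110.83 FPKM in Sham and at 660.57, 278.39 and 468.73 in IUA. It was at 215.28, 248.75 and 286.78 FPKM with control MSC and at 114.84, 215.96 and 190.70 with primed MSC. All libraries with the model were above Sham, and all 3 with primed MSC were below all 3 of IUA, while the control MSC libraries overlapped both. Ranges of primed MSC and IUA did not overlap, in either direction, for 37.6% of tested genes. Mmp12 rose by 2.76 ± 0.36 in IUA against Sham (adjusted p = 1.43e-04) and fell by 1.39 ± 0.36 with primed MSC against IUA (adjusted p = 0.0199). The difference with control MSC against IUA was -0.83 ± 0.36 (adjusted p = 0.239), and primed and control MSC differed by -0.56 ± 0.36 (adjusted p = 0.552). The fall with primed MSC missed the threshold without IUA replicate 1 (adjusted p = 0.0529), IUA replicate 3 (0.0657) or primed MSC replicate 1 (0.0816), and adjusted p ranged from 0.00875 to 0.0816 over the alternatives. Of the summed FPKM of the 7 metalloproteinases Mmp12 made up 21.3%, 25.1% and 40.2% in Sham, 70.6%, 63.5% and 79.1% in IUA, 45.2%, 45.4% and 53.1% with control MSC and 26.8%, 44.1% and 38.5% with primed MSC. The IUA libraries had the highest shares, without overlap with any other group.

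Mmp14 (chromosome 14, 54431612 to 54445364), the membrane-type enzyme that activates the Mmp2 proenzyme, was highest with primed MSC. It was at 69.09, 72.54 and 78.88 FPKM in Sham and at 83.00, 66.86 and 22.27 in IUA. It was at 96.73, 97.27 and 80.40 FPKM with control MSC and at 150.19, 107.42 and 138.13 with primed MSC. The primed MSC libraries were above all 9 others, and IUA replicate 3 was far below the rest. Mmp14 rose by 1.37 ± 0.35 with primed MSC against IUA (adjusted p = 0.0202) and differed by 0.51 ± 0.35 from control MSC (adjusted p = 0.585), although those ranges did not overlap, as was so for 25.2% of tested genes. Against Sham the difference with primed MSC was 0.82 ± 0.35 (adjusted p = 0.0613), which passed in 5 of 21 alternatives, median-ratio scaling among them (1.24). In IUA against Sham the difference was -0.54 ± 0.35 (adjusted p = 0.205), and it was -0.90 (adjusted p = 0.0406) without IUA replicate 1 and 0.02 without IUA replicate 3. Leaving out IUA replicate 3 also took the rise with primed MSC to 0.80 (adjusted p = 0.00915), and the call was lost without primed MSC replicate 1 (0.0719), without primed MSC replicate 3 (0.0590) or with the 2 groups fitted alone (0.0668), within a range of 0.00564 to 0.0719. In IUA replicate 3 the deviations of genes from their means ran against GC content (Spearman's rho -0.483 across genes, with -0.178 to 0.216 in the other libraries), and with a GC correction the rise was 1.08 (adjusted p = 0.0289).

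Mmp19 (chromosome 10, 128790910 to 128800824), a secreted enzyme that cuts basement membrane proteins, was a gene of middle level. It was at 70.23, 52.60 and 57.22 FPKM in Sham and at 125.75, 59.43 and 77.38 in IUA. It was at 102.94, 97.40 and 89.91 FPKM with control MSC and at 70.40, 91.57 and 89.00 with primed MSC. The libraries of both MSC groups were above all Sham libraries, by little for the lowest with primed MSC, while IUA libraries overlapped Sham. Mmp19 rose with control MSC against Sham (0.69 ± 0.22, adjusted p = 0.0181), a call that 3 of 21 alternatives did not keep, with adjusted p up to 0.0686. The differences of 0.48 ± 0.22 in IUA (adjusted p = 0.0813) and 0.47 ± 0.22 with primed MSC (adjusted p = 0.0806) against Sham did not pass. With median-ratio scaling both passed (0.88, adjusted p = 0.00770, and 0.89, adjusted p = 0.00556), within ranges of 0.00770 to 0.359 and 0.00556 to 0.218 over the alternatives.

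The 3 inhibitors moved apart from each other. Timp1 (chromosome X, 20870166 to 20874735), a secreted inhibitor that also binds the Mmp9 proenzyme, was at 29.04, 15.95 and 13.14 FPKM in Sham and at 74.51, 110.34 and 66.95 in IUA. It was at 63.92, 92.89 and 45.02 FPKM with control MSC and at 33.53, 47.06 and 41.01 with primed MSC. All libraries with the model were above Sham, and all primed MSC libraries were below all IUA libraries. Such a lack of overlap between primed MSC and IUA, in either direction, held for 37.6% of tested genes. Timp1 rose by 2.10 ± 0.30 in IUA against Sham (adjusted p = 2.46e-04) and fell by 1.01 ± 0.30 with primed MSC against IUA (adjusted p = 0.0368). The difference with control MSC was -0.34 ± 0.30 against IUA (adjusted p = 0.580), and primed and control MSC differed by -0.67 ± 0.30 (unadjusted p = 0.0476, adjusted p = 0.384). The fall with primed MSC did not pass in 6 of 21 alternatives: without the filter on low values, without IUA replicate 2 or 3, and without each of the 3 primed MSC replicates in turn, with adjusted p between 0.0189 and 0.123 over the alternatives.

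Timp3 (chromosome 10, 86300372 to 86349506), the inhibitor that stays bound to the matrix, was lower in all 3 groups with the model than in Sham. It was at 189.86, 224.47 and 184.47 FPKM in Sham and at 49.87, 84.93 and 49.23 in IUA. It was at 64.91, 35.88 and 30.73 FPKM with control MSC and at 41.53, 33.97 and 47.22 with primed MSC. Each Sham library was more than any library with the model, and the primed MSC libraries lay just below the IUA libraries. IUA lay below Sham without overlap for 47.7% of tested genes. Of all tested genes 45.0% were called lower than Sham in IUA, 42.7% with control MSC and 45.0% with primed MSC. Timp3 fell by 1.73 ± 0.26 in IUA against Sham (adjusted p = 3.28e-04), by 2.23 ± 0.26 with control MSC and by 2.27 ± 0.26 with primed MSC against Sham. Primed MSC and IUA differed by -0.54 ± 0.26 (adjusted p = 0.168), with ranges that did not overlap, as was so in either direction for 37.6% of tested genes. In the Sham libraries the summed markers of epithelium, endothelium, smooth muscle and pericytes, and mast cells were also highest, and their part in the level of Timp3 was not tested.

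Timp2 (chromosome 11, 118301069 to 118355740), the inhibitor that joins Mmp14 and Mmp2 in a complex, was the most abundant inhibitor in the groups with the model and passed no test. It was at 234.61, 130.99 and 150.44 FPKM in Sham, 236.19, 234.47 and 117.67 in IUA, 178.11, 189.66 and 164.90 with control MSC and 129.94, 176.99 and 142.23 with primed MSC. All 4 groups overlapped, and the test over the 4 groups gave an adjusted p of 0.664 (limma). Timp3 made up 41.9%, 60.4% and 53.0% of the summed FPKM of the 3 inhibitors in Sham, 13.8%, 19.8% and 21.1% in IUA, 21.1%, 11.3% and 12.8% with control MSC and 20.3%, 13.2% and 20.5% with primed MSC. Timp1 made up 3.78% to 6.40% in Sham and 16.4% to 29.2% in the other libraries.

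**Figure D3:**
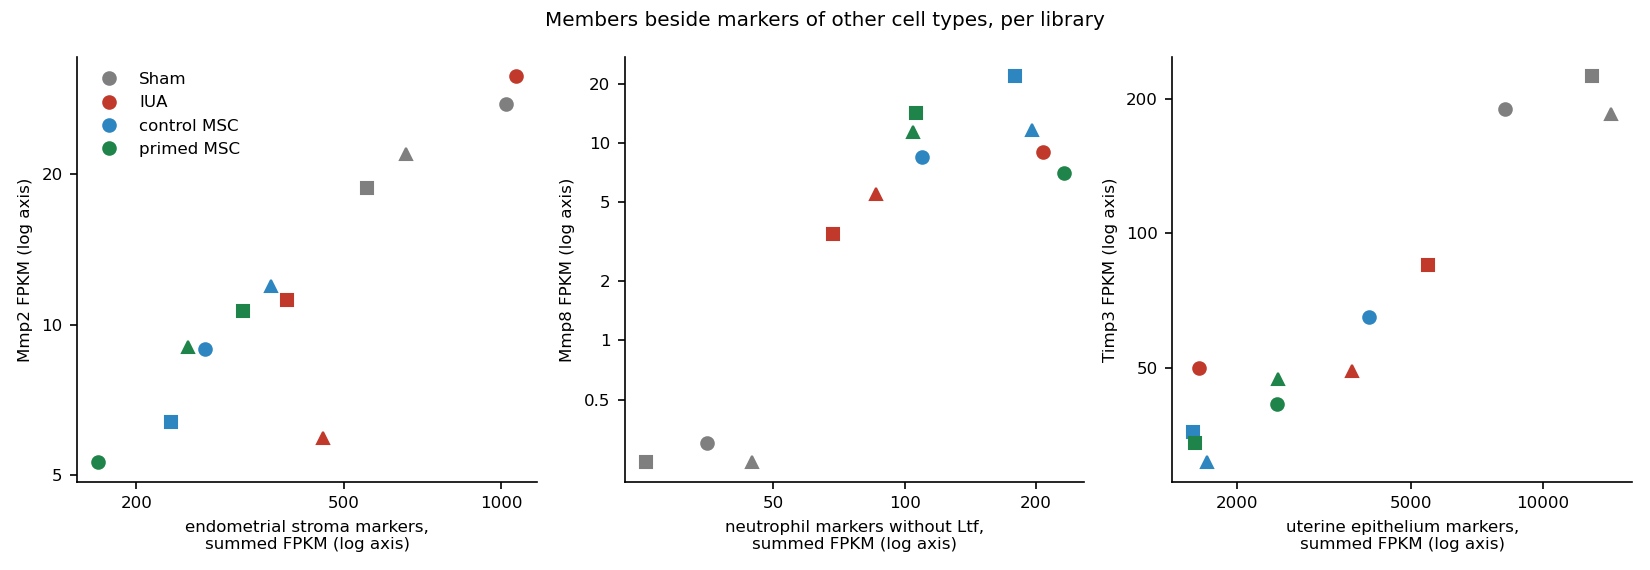
Mmp2, Mmp8 and Timp3 FPKM against the summed FPKM of stromal, neutrophil and epithelial markers in the 12 libraries, all on log axes, with 1 point per library and shapes for replicates 1 to 3. The Sham libraries stand apart in the panels of Mmp8 (below 0.5 FPKM) and Timp3 (above 180 FPKM), and IUA replicate 1 lies beside them in the panel of Mmp2.

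Ratios of an enzyme to an inhibitor known to bind it describe how the 2 mRNAs shifted within a library, and no test was run on them. Mmp9 over Timp1 was 0.200, 0.218 and 0.419 in Sham and 0.166, 0.104 and 0.101 in IUA. It was 0.622, 0.735 and 1.18 with control MSC and 2.12, 0.947 and 1.18 with primed MSC. Both MSC groups were above every Sham and IUA library and overlapped with each other, and IUA was lowest. Mmp14 over Timp2 was 0.294, 0.554 and 0.524 in Sham, 0.351, 0.285 and 0.189 in IUA, 0.543, 0.513 and 0.488 with control MSC and 1.16, 0.607 and 0.971 with primed MSC. The primed MSC libraries had the highest values without overlap. Mmp12 over Timp1 ran from 1.65 to 8.43 in Sham, 2.52 to 8.87 in IUA, 2.68 to 6.37 with control MSC and 3.42 to 4.65 with primed MSC, and all groups overlapped. Mmp2 over Timp2 went down, from 0.118 to 0.146 in Sham and 0.0477 to 0.133 in IUA. It was 0.0337 to 0.0727 with control MSC and 0.0409 to 0.0636 with primed MSC, both below every Sham library. Mmp8 over Timp1 was 0.0103 to 0.0183 in Sham and 0.0312 to 0.121 in IUA. It was 0.133 to 0.258 with control MSC and 0.210 to 0.302 with primed MSC. Summed over the 7 metalloproteinases and 3 inhibitors, the ratio was 0.496, 0.538 and 0.793 in Sham, 2.60, 1.02 and 2.53 in IUA, 1.55, 1.72 and 2.24 with control MSC and 2.09, 1.90 and 2.15 with primed MSC. It was below 1 in each Sham library and above 1 in each library with the model. Mmp12 alone made up 63.5% to 79.1% of the metalloproteinase sum in IUA and 21.3% to 40.2% in Sham. The summed ratio thus depends much on this gene, and it was not computed without Mmp12.

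**Figure D4:**
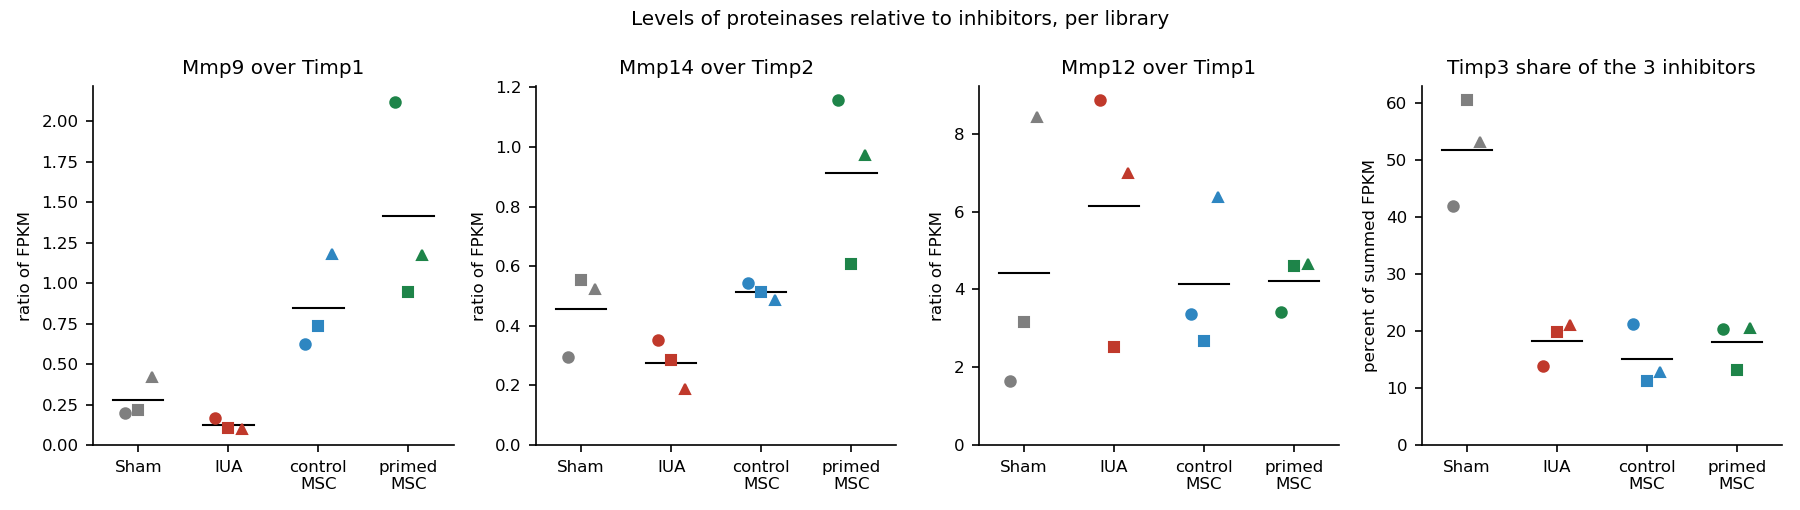
Ratios of FPKM (Mmp9 over Timp1, Mmp14 over Timp2, Mmp12 over Timp1) and the share of Timp3 in the summed FPKM of the 3 inhibitors, with 1 point per library (circle, square and triangle for replicates 1, 2 and 3) and a line at the mean of each group of 3. Mmp9 over Timp1 is between 0.622 and 2.12 in the MSC groups and at most 0.419 in the others, and the share of Timp3 among the inhibitors is at least 41.9% in Sham and at most 21.1% elsewhere.

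The cluster that holds Mmp8, Mmp12 and Mmp13 spans 427 kb, from base 7272514 to 7699585 of chromosome 9 (GRCm38). Its genes run in the order Mmp13, Mmp12, Mmp1b, Mmp3, Mmp1a, Mmp10, Mmp8, Mmp27, Mmp20 and Mmp7, and this list was formed after values were seen. Mmp1a was listed at 0 in all libraries, and Mmp1b and Mmp20 at 0.12 FPKM or less. Of the 7 tested genes 6 rose in IUA against Sham, all except Mmp3, where 11.1% of all tested genes rose. Among the 6, Mmp8, Mmp10 and Mmp27 were under 1 FPKM in every Sham library. They passed the filter on low values only through the groups with the model, so a rise from Sham was favoured by how they entered the test. Mmp7, known as matrilysin of epithelium, rose by 2.35 ± 0.59 (adjusted p = 0.00539), Mmp10 by 1.77 ± 0.47 (adjusted p = 0.00746) and Mmp27 by 1.54 ± 0.26 (adjusted p = 5.16e-04). The same number, 6 of 7, rose with control MSC and with primed MSC against Sham, which share the Sham libraries. Over all tested genes 14.1% and 14.5% rose in these comparisons. Mmp3, the stromelysin that cuts proteoglycans and activates other proenzymes, was at 9.61, 4.24 and 5.58 FPKM in Sham, 25.96, 6.45 and 5.51 in IUA, 3.20, 4.02 and 5.25 with control MSC and 2.79, 2.96 and 2.60 with primed MSC. Its primed MSC libraries were below all others, and it fell by 1.53 ± 0.44 against IUA (adjusted p = 0.0301), where IUA replicate 1 was the highest. Among all other metalloproteinases and Timp4, on or off the cluster, 3 of 7 tested genes rose and 1 fell in IUA against Sham. The shares over all tested genes were 11.1% and 45.0%. Mmp15, off the cluster, was at a mean of 5.45 ± 1.78 FPKM (SD, n = 3) in Sham, 1.01 ± 0.87 in IUA, 0.94 ± 0.67 with control MSC and 1.57 ± 0.69 with primed MSC.

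**Figure D5:**
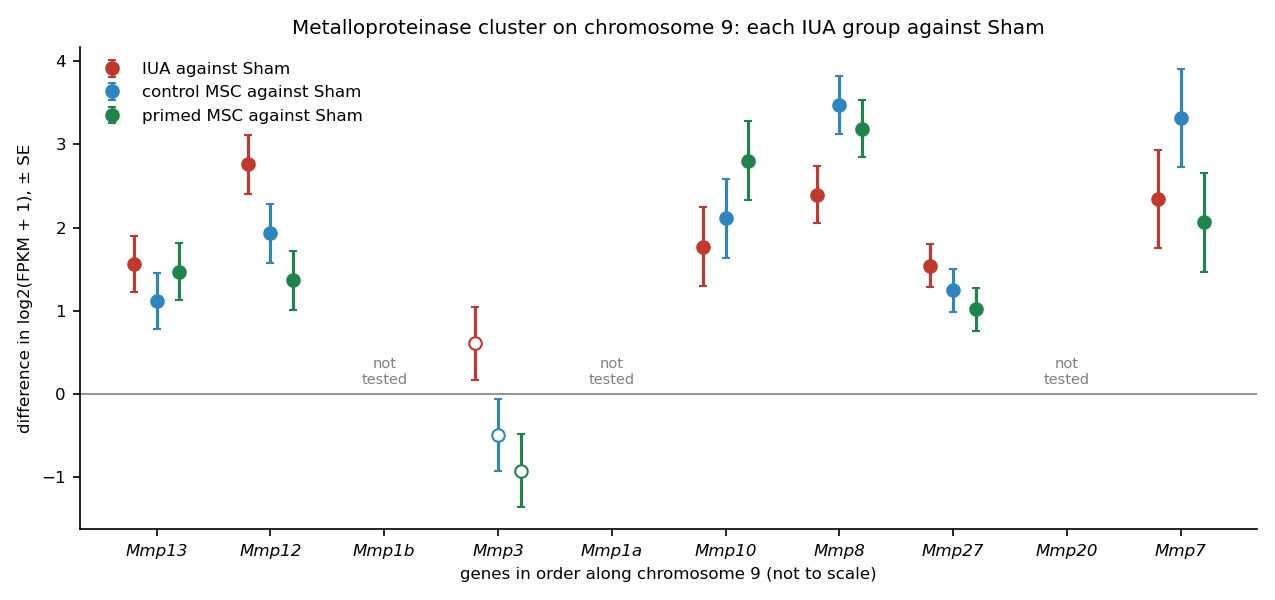
Difference in log2(FPKM + 1) from Sham, estimate ± SE from limma, for the Mmp genes of the chromosome 9 cluster in their order along the chromosome (not to scale), in IUA (red), control MSC (blue) and primed MSC (green), filled where the adjusted p was under 0.05. All 3 points are filled and above 0 for 6 genes, Mmp3 has open points on both sides of 0, and Mmp1b, Mmp1a and Mmp20 were not tested.

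The other genes of the system were read from lists chosen by function. In IUA against Sham 11.1% of all tested genes rose and 45.0% fell, with 23.2% and 21.8% under median-ratio scaling and 22.7% and 21.9% under the GC correction. With primed MSC against IUA 12.2% rose and 6.97% fell. No list was tested against these shares. Of the ADAM and ADAMTS proteases, which shed surface proteins or cut proteoglycans, 2 of 12 rose and 6 fell in IUA against Sham, with 3 and 3 under median-ratio scaling and 3 and 2 under the GC correction. Adam17, the sheddase of tumour necrosis factor, rose by 0.87 ± 0.08 (adjusted p = 2.24e-05), and Adam8, a sheddase of myeloid cells, by 1.69 ± 0.19 (adjusted p = 5.69e-05). Adam19 fell by 0.48 ± 0.14 (adjusted p = 0.0140) and Adam33 by 0.78 ± 0.17 (adjusted p = 0.00207), and neither passed under the GC correction (adjusted p = 0.993 and 0.330), nor Adam19 under median-ratio scaling (0.232). Adam33 had a mean of 2.17 FPKM in Sham and of at most 0.847 in the other groups. Its passing of the filter on low values needed the Sham libraries, which favoured a fall from Sham. With primed MSC against IUA 3 of the 12 rose and 0 fell, Adam19 among the 3 (1.17, adjusted p = 7.15e-04). Of 12 proteins that dock, inhibit or clear metalloproteinases, 3 rose and 4 fell, with 5 and 2 under median-ratio scaling and 6 and 2 under the GC correction. Cd44, a surface receptor that holds Mmp9, rose by 1.04 ± 0.11, and Lcn2, whose human form binds MMP9 in neutrophils, by 2.09 ± 0.48. Spock2, a matrix proteoglycan, fell by 1.21 ± 0.17. Its mean was 2.27 FPKM in Sham, 0.393 in IUA, 0.247 with control MSC and 0.367 with primed MSC. It passed the filter on low values only through Sham, so a fall from Sham was favoured by how it entered the test. With primed MSC against IUA 3 of these 12 rose and 1 fell. Thbs1, a matrix protein that binds metalloproteinases, was at a mean of 244 ± 12.3 FPKM (SD, n = 3) in Sham, 754 ± 91.6 in IUA, 1168 ± 113 with control MSC and 1563 ± 171 with primed MSC. It rose against IUA with control MSC (0.63 ± 0.12, adjusted p = 0.0420) and with primed MSC (1.05 ± 0.12, adjusted p = 4.95e-04), and the call with control MSC was lost with median-ratio scaling (adjusted p = 0.0735) and with the GC correction (0.0768).

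For the next 2 lists the shares over all tested genes in IUA against Sham were 11.1% higher and 45.0% lower. They were 23.2% and 21.8% under median-ratio scaling, and 22.7% and 21.9% under the GC correction. With primed MSC against IUA they were 12.2% and 6.97%. Among 12 proteases and inhibitors that govern proenzyme activation, 4 rose and 3 fell in IUA against Sham, with 6 and 2 under median-ratio scaling and 6 and 1 under the GC correction. Slpi, an inhibitor of neutrophil elastase, rose by 3.90 ± 0.27, and Serpinb2, an inhibitor of plasminogen activators, by 2.78 ± 0.31, and Prtn3, a protease of neutrophil granules, by 3.21 ± 0.33, while Plat, which generates plasmin, fell by 1.96 ± 0.34. Prtn3 had a mean of 0.0767 FPKM in Sham and passed the filter on low values only through the groups with the model. With primed MSC against IUA, 1 of these 12 rose and 3 fell, among them Serpinb2 (-1.11 ± 0.31, adjusted p = 0.0289, and 0.0678 with the GC correction). Cathepsins and cystatins, the lysosomal counterpart of the metalloproteinases, rose in 8 of 10 cases in IUA against Sham and fell in 0, and all 10 rose under both other scalings. In IUA against Sham Ctss rose by 2.00 (adjusted p = 2.67e-07), Ctsl by 1.90, Ctsz by 1.54 and Ctsh by 0.73, all lysosomal proteases. With limma 0 of these 10 were called with control MSC against IUA, where 1 had an unadjusted p under 0.05, and 2 fell with primed MSC. Over all tested genes only 0.724% rose and 0.129% fell with control MSC against IUA. Macrophage markers were higher in the same libraries, and their part in these rises was not tested.

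Of 21 matrix proteins that serve as substrates, 2 rose and 7 fell in IUA against Sham, and 2 rose and 4 fell under median-ratio scaling and under the GC correction. Over all tested genes, for this list and the next, 11.1% rose and 45.0% fell. The shares were 23.2% and 21.8% under median-ratio scaling, 22.7% and 21.9% under the GC correction, and 12.2% and 6.97% with primed MSC against IUA. Fn1, fibronectin, rose by 2.32 ± 0.25 (adjusted p = 4.55e-05), while Nid1 and Lama4 of the basement membrane fell by 1.23 and 0.79, the latter not under median-ratio scaling (adjusted p = 0.104) or the GC correction (0.0604). Of the same 21 genes 4 fell with primed MSC against IUA, and 0 were called by limma with control MSC, where 3 had an unadjusted p under 0.05. With control MSC against IUA only 0.724% of all tested genes rose and 0.129% fell. Dcn, decorin, was at a mean of 419 ± 124 FPKM (SD, n = 3) in Sham, 280 ± 181 in IUA, 89.3 ± 27.6 with control MSC and 65.1 ± 25.6 with primed MSC, and fell by 1.97 with primed MSC against IUA (adjusted p = 0.00685). Of 13 transcription factors of the AP-1 and ETS families, whose motifs are known from Mmp promoters, 10 fell and 0 rose in IUA against Sham by limma, and 0 were higher at an unadjusted p under 0.05, while under median-ratio scaling and under the GC correction 6 fell and 2 rose. With primed MSC against IUA 5 of these 13 rose and 0 fell, with 5 and 0 under median-ratio scaling and 4 and 0 under the GC correction. Elf1 fell by 0.98 ± 0.13 and Fosb by 1.11 ± 0.17 in IUA against Sham. Fosl1 was at a mean of 131 ± 39.4 FPKM (SD, n = 3) in Sham and 44.3 ± 18.7 in IUA. Fos did not differ past the threshold in IUA against Sham (-0.01 ± 0.10, but 0.40 with adjusted p = 0.0140 under median-ratio scaling). It rose with control MSC (0.51 ± 0.10, adjusted p = 0.0420) and with primed MSC (0.75 ± 0.10, adjusted p = 8.57e-04) against IUA, and the first of these was lost under median-ratio scaling (0.0729) and the GC correction (0.148).

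For each member the 3 genes of most similar pattern were taken by Pearson's r of log2(FPKM + 1) over the 12 libraries. The libraries share their groups, so a high r can come from the group means alone, and no p is given. Mmp2 ran closest to collagen genes of stroma, Col5a2 (r = 0.955), Col6a2 (0.952) and Col6a1 (0.951). Mmp12 ran closest to Lpl (0.964) and Gpnmb (0.962), genes of lipid-handling macrophages, and to Lrp12 (0.937). For Mmp9 the closest were Hcls1 (0.983), Hif1a (0.983) and Coro1b (0.979), for Mmp8 Glud1 (0.992), for Mmp13 Pde4b (0.966) and for Mmp14 Psd4 (0.980). Timp1 ran closest to Ms4a8a (0.971), Wfdc17 (0.953) and Srgn (0.951), which myeloid cells express. Timp3 was closest to Cyb5r3 (0.995), Mmp19 to Pced1a (0.962) and Timp2 to Il27ra (0.877), the lowest of the 10 closest values.

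Some members share their locus with another gene. Mmp12 overlaps Mmp1b (at most 0.12 FPKM), Mmp19 overlaps Tmem198b (at most 8.51 FPKM), Timp1 overlaps Syn1 (at most 2.06 FPKM), Timp2 overlaps Cep295nl (at most 0.97 FPKM) and Timp3 overlaps Syn3 (at most 0.53 FPKM). All but Cep295nl lie on the opposite strand, and whether the counting used strand is not given in the sources used here. Each overlapping gene was below the member in every library.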

How the data were processed

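RNA of F4/80-positive endometrial cells was measured in 12 libraries, 3 in each of 4 groups taken from the labels. The authors deposited 1 table of FPKM per gene and library. Per the submitters' processing notes the tools were DESeq2, RSEM, StringTie, HISAT2 and fastp and the genome build mm10, with versions and roles not given in the sources used here. FPKM keeps no counts, and low values gave no step of whole reads (the fullest bin held 1.38% to 2.92% of genes), so the depth is unknown and no count test was run.

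The log2(FPKM + 1) values entered limma 3.58.1 under R 4.3.3 (lmFit, contrasts and eBayes with a variance trend) on all 12 libraries with 1 mean per group. Genes with at least 1 FPKM in at least 3 libraries were kept (11604, of 22294, with 4237 at 0 in every library). Tests were two-sided, with Benjamini-Hochberg adjustment over all kept genes and a threshold of 0.05. An exact permutation test of single genes was not run. On simulated data for IUA against Sham over 11604 genes the test found 68% of 100 genes changed by 1 on the log2 scale and 95% of 100 changed by 2, with 7 false calls. Only these genes were changed there, with no shift of whole libraries, whereas 6517 genes were called in the data. The shares found and the false calls therefore do not describe the test on these data. Alternatives were other pseudocounts and filters, TPM, median-ratio scaling, the compared groups alone, a replicate block, a GC correction and leaving out each library. The GC correction subtracted from each library a smooth curve of its deviations on GC content, level included, so it also rescaled the libraries.

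Genes named outside the members are the 4 of each list with the smallest p in the test over 4 groups, and the 3 genes of most similar pattern to each member (genes with provisional names left out), unless the text says otherwise. The members, lists and tests were chosen with earlier results of these data known. Positions come from GENCODE and promoter sequences from RefSeq, both of GRCm38, the assembly also named mm10.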

Additional observations from a re-analysis of the deposited data

How the results depend on the processing

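Of the 26 member changes that passed the threshold, 18 kept direction and call under all 21 alternatives run, and 0 of the 26 changed sign. The 8 others each missed the threshold in at least 1 of them: Mmp9 in IUA against Sham, Mmp12, Mmp14 and Timp1 with primed MSC against IUA, Mmp2, Mmp13 and Mmp19 with control MSC against Sham, and Mmp2 with primed MSC against Sham. The cause was not tested, beyond that leaving out a library leaves fewer samples. Of 18 correlations of deviations from the group means between libraries with the same replicate number, 3 were over 0.1 (range -0.293 to 0.288). Correlations between libraries of different numbers were not computed, so these values cannot decide whether such libraries were linked. The block on replicate number changed no member's call, and it left 43 genes called with control MSC against IUA and 0 with primed against control MSC.

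All called genes for primed against control MSC numbered 13, and 4 with a pseudocount of 0.1, 5 with 0.5, 0 with no filter on low values, 5 with a filter at FPKM 5, 6 with TPM, 25 with median-ratio scaling, 207 with the compared groups alone and 24 with the GC correction. For control MSC against IUA they numbered 99, and 29 with no filter, 58 with median-ratio scaling, 16 with the groups alone and 59 with the GC correction. For primed MSC against IUA they numbered 2219, and 1343 with the groups alone. Members lower with primed MSC against IUA went from 2 to 1 with no filter, and members higher from 2 to 1 with the groups alone. Members lower against Sham went from 2 to 1 with control MSC (no filter, median-ratio scaling, GC correction) and from 2 to 1 with primed MSC (median-ratio scaling, GC correction).

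Leaving out each library in turn gave 5 to 329 genes called with control MSC against IUA, 1154 to 2560 with primed MSC against IUA and 0 to 233 for primed against control MSC. Members lower ran from 1 to 3 in IUA against Sham, 0 to 2 with primed MSC against IUA, and 1 to 2 with either MSC against Sham. Members higher with primed MSC against IUA ran from 1 to 3.

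Only changes that had not passed reversed in sign. With TPM these were Mmp19 with primed MSC against IUA (0.0515), Timp3 for primed against control MSC (0.0102) and Timp2 with control MSC against Sham (-0.0141). With median-ratio scaling they were Mmp19 with primed MSC against IUA (0.0134), Timp3 for primed against control MSC (0.00736) and Timp2 with primed MSC against Sham (0.26). With the GC correction they were Mmp13 and Mmp19 with primed MSC against IUA (0.0932 and 0.0216), Timp3 for primed against control MSC (0.00239) and Timp2 with primed MSC against Sham (0.15). Other log2 differences that crossed 0 did so when a library was left out. For IUA against Sham these were Mmp14 -0.90 to 0.0213 and Timp2 -0.00806 to 0.50. For control MSC against IUA these were Mmp2 -1.01 to 0.0967, Mmp19 -0.0303 to 0.50 and Timp2 -0.41 to 0.0928. For primed MSC against IUA these were Mmp13 -0.31 to 0.21 and Mmp19 -0.25 to 0.29. For primed MSC against control MSC these were Mmp2 -0.33 to 0.14, Mmp8 -0.56 to 0.0673, Mmp9 -0.18 to 0.21 and Timp3 -0.25 to 0.28. For control MSC against Sham these were Timp2 -0.0835 to 0.33. For primed MSC against Sham these were Timp2 -0.34 to 0.0801. Depth is unknown, so its limits on low genes such as Mmp8 in Sham could not be given.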
